A study of Mus musculus with 18 samples.

Results

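The adult globin genes, the red cell heme synthesis gene *Alas2*, and *Nme4* were followed across 18 tumors grown from K7M2 cells. Members were chosen by name, as the genes of hemoglobin plus the neighbor that the human alpha-globin cluster has in *NME4*. Of the 8 genes named, 6 were among the 20878 genes of the expression matrix: the alpha globins *Hba-a1* and *Hba-a2*, the beta globins *Hbb-bs* and *Hbb-bt*, *Alas2*, and *Nme4*. *Hbb-b1* and *Hbb-b2*, which RefSeq lists as protein-coding genes of chromosome 7, had no row in the matrix and were not analysed here. Which beta globin genes each host strain carries was not tested.

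K7M2 is a mouse osteosarcoma line of Balb/c origin. All tumors grew under the skin of female mice that were 6 to 8 weeks old, and all K7M2 cells had been transduced by lentivirus, with a control shRNA (ATRX-CT) or with an shRNA against *Atrx* (ATRX-KD). The 4 groups were 4 ATRX-CT and 4 ATRX-KD tumors in Balb/c mice (Balb/cJ, immunocompetent and syngeneic) and 5 ATRX-CT and 5 ATRX-KD tumors in NSG mice (NOD.Cg-Prkdc scid Il2rg tm1Wjl/SzJ, which lack T, B, and NK cells), each from a separately numbered mouse. Whole cages were assigned to a kind of cells and the labels give no cage, so cage and knock-down cannot be told apart. The hosts differ in strain as well as in immune cells, and these cannot be told apart either.

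Values are FPKM, the fragments scaled to transcript length and library size, deposited as log2 (FPKM + 1), and the depth estimated from them was 15050000 to 25400000 fragments per tumor with a median of 20325000. Of 8 osteoblast markers, *Col1a2* (218 to 594 FPKM), *Spp1* (180 to 604 FPKM), *Col1a1* (56.6 to 499 FPKM), and *Runx2* (3.54 to 11.1 FPKM) were present in every tumor. Others of the 8 were low or absent, with *Alpl* at most 0.662 FPKM and *Bglap* listed at 0 in 13 of 18 tumors. Over all tumors 3 of the 8 had a mean under 0.1 FPKM. Tumors differed in how values changed with transcript length, and this length slope ran from -0.146 to 0.211 log2 units per doubling of length. It exceeded 0.1 in 4 of 8 Balb/c tumors and in 2 of 10 NSG tumors, and each result that moves with it is given with it.

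Hemoglobin is a tetramer of alpha and beta chains, each of which holds a heme group. Adult red cell precursors transcribe the globin genes at very high levels under factors such as GATA1, KLF1, and TAL1, and ALAS2 catalyses the first step of heme synthesis in these cells. Reticulocytes, the young red cells of the blood, still carry globin and *Alas2* RNA, so RNA of a tissue with blood can hold both. ATRX is a chromatin remodeler that deposits histone H3.3 with DAXX at repeats and heterochromatin. Its inherited loss in humans lowers alpha-globin expression and causes alpha-thalassemia, and human *NME4*, which encodes a mitochondrial nucleoside diphosphate kinase, is known to respond to ATRX near the same cluster.

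In the mouse these genes are not neighbors. The authors' mm10 annotation placed *Hba-a1* at chr11:32283672-32284486 and *Hba-a2* at chr11:32296492-32297310, both on the plus strand. It placed *Hbb-bt* at chr7:103812524-103813923 and *Hbb-bs* at chr7:103826523-103827928, both on the minus strand, and each of the 4 globins had 3 exons. *Alas2* lay at chrX:150547417-150570622 with 11 exons, and *Nme4* lay at chr17:26091745-26095470, minus strand, with 5 exons and 1 transcript of 863 nt. *Nme4* was thus on another chromosome than the alpha globins, and RefSeq lists an alpha-globin pseudogene, *Hba-ps4*, further along the same chromosome at chr17:26286279-26287061.

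The RefSeq promoters (GRCm38.p6, the assembly of mm10) show what the members share and where *Nme4* departs. They are printed for the 250 bases before each start, 5′ to 3′ on the gene's strand, with capitals for the TATA box (ATATAA), the CACCC box (CACCC), the CCAAT box (CCAAT), and the GATA motif (GATAA) on either strand. All 6 members matched the promoter table, and *Hba-a2* is not printed because its promoter is identical to that of *Hba-a1* over the 297 bases that their windows share.
Hba-a1, chr11:32283422-32283671, plus strand: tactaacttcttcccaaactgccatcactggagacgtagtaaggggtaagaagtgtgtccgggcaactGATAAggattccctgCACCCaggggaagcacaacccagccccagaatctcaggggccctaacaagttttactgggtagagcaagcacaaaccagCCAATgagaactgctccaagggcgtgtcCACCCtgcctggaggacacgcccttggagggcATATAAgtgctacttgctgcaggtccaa
Hbb-bs, chr7:103827929-103828178, minus strand: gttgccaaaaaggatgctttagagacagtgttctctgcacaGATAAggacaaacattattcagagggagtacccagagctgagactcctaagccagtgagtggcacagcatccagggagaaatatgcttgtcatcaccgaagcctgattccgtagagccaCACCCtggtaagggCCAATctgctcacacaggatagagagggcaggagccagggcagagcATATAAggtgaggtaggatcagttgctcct
Hbb-bt, chr7:103813924-103814173, minus strand: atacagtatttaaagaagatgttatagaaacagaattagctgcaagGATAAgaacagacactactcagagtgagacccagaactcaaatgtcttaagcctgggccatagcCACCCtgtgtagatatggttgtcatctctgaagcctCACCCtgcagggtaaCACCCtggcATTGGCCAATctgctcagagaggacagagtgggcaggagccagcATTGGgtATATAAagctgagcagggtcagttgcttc
Alas2, chrX:150547167-150547416, plus strand: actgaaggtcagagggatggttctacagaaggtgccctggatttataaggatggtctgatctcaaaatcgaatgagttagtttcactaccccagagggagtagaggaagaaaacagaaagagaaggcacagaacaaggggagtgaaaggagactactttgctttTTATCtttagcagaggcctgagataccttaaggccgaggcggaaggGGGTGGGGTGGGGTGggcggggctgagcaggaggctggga
Nme4, chr17:26095471-26095720, minus strand: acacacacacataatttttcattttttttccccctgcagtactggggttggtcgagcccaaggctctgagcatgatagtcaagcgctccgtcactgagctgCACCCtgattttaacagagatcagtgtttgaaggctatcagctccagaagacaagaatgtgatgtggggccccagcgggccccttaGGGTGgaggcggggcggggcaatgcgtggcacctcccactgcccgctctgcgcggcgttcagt
Each globin promoter held all 4 motifs, with the TATA box starting at -31 to -28. *Alas2* held a GATA motif at -86 and 3 CACCC boxes on the opposite strand between -40 and -30, but neither of the other motifs. *Nme4* held CACCC boxes at -149 and -63 and none of the other 3 motifs. Among 32851 promoter windows of 300 bases, 9.82% held the TATA box, 57.5% the CACCC box, 37.4% the CCAAT box, and 25.4% the GATA motif, so a CACCC match alone is common. A match is a description of these letters and was not tested as a site. At the best single shift without gaps, the promoters of *Hbb-bs* and *Hbb-bt* were identical at 56.2% of 299 bases, below the identity of the alpha pair. An alignment with gaps was not made and could give a higher value.

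The coding sequences set a limit on how well reads of 75 bases could be assigned. *Hba-a1* and *Hba-a2* share a coding sequence of 429 nt that differs at 1 base, C381T, counted from the start codon. *Hbb-bs* and *Hbb-bt* share 444 nt that differ at 1 base, C417T. In the reference both changes are silent, in codons 127 and 139. Each pair there encodes the same protein, of 142 residues for alpha and 147 for beta globin. The sequences of the host strains were not read. The 25 bases around each difference are shown with the differing base in capitals.
Hba-a1: tgcctctctggaCaaattccttgcc
Hba-a2: tgcctctctggaTaaattccttgcc
Hbb-bs: ggctggagtggcCgctgccctggct
Hbb-bt: ggctggagtggcTgctgccctggct
Of all 75-nt windows of the transcript, 83.8% of those of *Hba-a1* and 80.9% of those of *Hba-a2* occur in the other alpha gene, and 64.3% and 64.0% of those of *Hbb-bs* and *Hbb-bt* in the other beta gene. For *Hba-a1*, all 75 windows that tell the copies apart cover C381T, and for *Hba-a2* 75 of 91 do. No window of *Alas2* or *Nme4* was shared. The split of fragments within a globin pair is therefore uncertain, and the handling of reads that match both copies is not stated. Reads with a score under 20 were removed, and whether this score is a mapping or a base quality is not said. If it is a mapping quality, reads that match both copies would be lost, and the globin values would rest on the windows that tell the copies apart.

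All tumors held globin RNA. The 4 adult globins together gave 167 to 1364 FPKM per tumor, with a median of 582 FPKM in Balb/c and 452 FPKM in NSG tumors, and the hosts overlapped. *Hbb-bs* was the highest in 18 of 18 tumors, at 107 to 717 FPKM, followed by *Hba-a1* at 29.2 to 456 FPKM, and both stood above *Hbb-bt* at 10.2 to 191 FPKM in every tumor. Of the windows, 83.8% are shared with the copy for *Hba-a1* but 64.3% for *Hbb-bs*. If reads that match both copies were lost, alpha values would be lowered more than beta values. Whether the order of alpha and beta genes rests on this was not tested. *Alas2* was at 2.31 to 24.5 FPKM and *Nme4* at 5.97 to 19.8 FPKM. In bulk tumor RNA, fewer blood cells and less RNA per cell cannot be told apart.

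**Figure D1:**
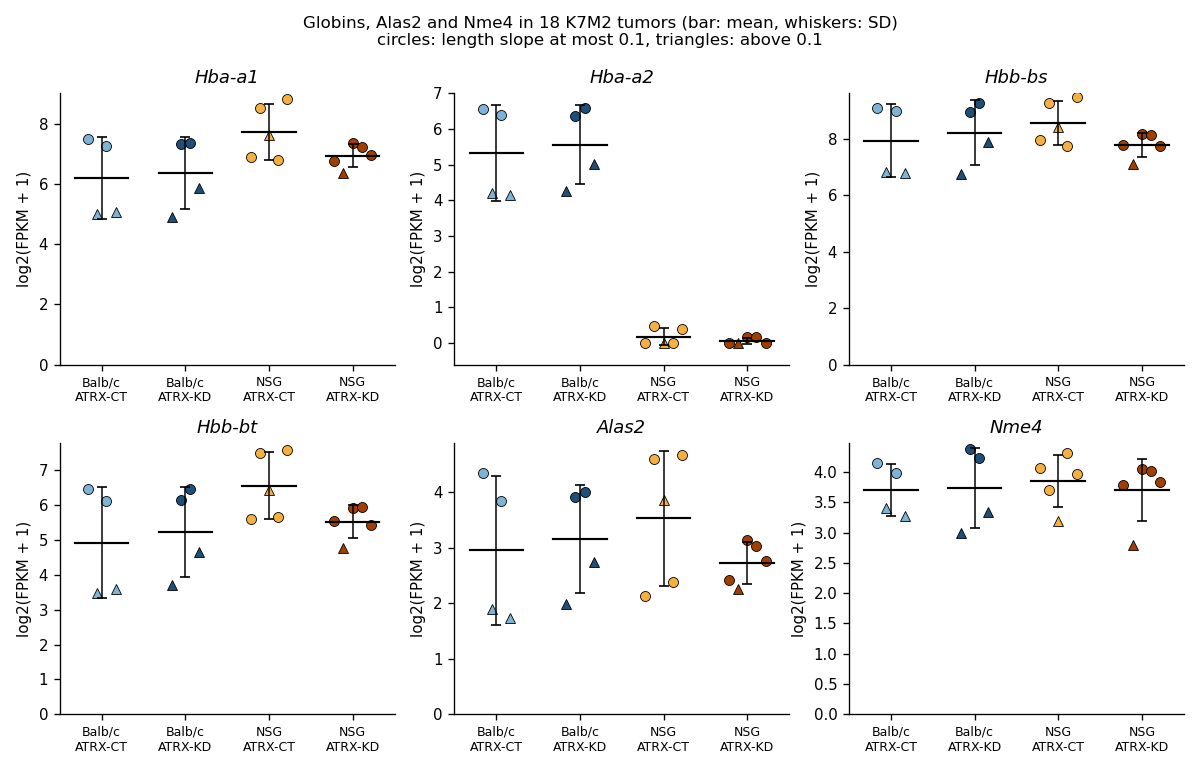
Level of each gene in every tumor, as log2 (FPKM + 1), for ATRX-CT and ATRX-KD tumors in Balb/c (n = 4 and 4) and NSG mice (n = 5 and 5); the bar is the mean, the whiskers are the SD, and triangles mark the 6 libraries with a length slope above 0.1. *Hba-a2* lies between 16.7 and 95.9 FPKM in the Balb/c tumors and at most at 0.386 FPKM in the NSG tumors, whereas the hosts overlap for the other 5 genes.

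*Hba-a2* separated the hosts without overlap. It stood at 93.5, 17.5, 83.6, and 16.7 FPKM in the Balb/c ATRX-CT tumors of mice 41, 43, 44, and 45, and at 18.3, 81.7, 95.9, and 31.5 FPKM in the Balb/c ATRX-KD tumors of mice 56, 58, 59, and 60. In the NSG ATRX-CT tumors it was listed at 0 in mice 1, 3, and 4, at 0.386 FPKM in mouse 2, and at 0.316 FPKM in mouse 5. In the NSG ATRX-KD tumors it was listed at 0 in mice 26, 27, and 30 and at 0.121 FPKM in mice 28 and 29. Every Balb/c tumor thus had a clear *Hba-a2* signal, whereas the largest NSG value corresponds to an estimated 3.00 fragments.

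A value of 3 fragments was taken as the floor in each NSG tumor. It allows for counting error where a tumor was listed at 0. It does not where the value is above 0, as in mouse 2 with an estimated 3.00 fragments. The floor also rests on the estimated depth and on the fragment length of 160 nt used for it. It does not cover how reads were assigned, since the reference is the genome of neither host strain. Of the 91 windows that tell *Hba-a2* from *Hba-a1*, 75 cover C381T, and the base that each host carries there was not tested. Against the highest such floor, 0.493 FPKM, the mean of the Balb/c ATRX-CT tumors (52.8 ± 41.5 FPKM, SD, n = 4) was 107-fold higher. For ATRX-KD cells, against a floor of 0.362 FPKM, the mean (56.8 ± 37.8 FPKM, SD, n = 4) was 157-fold higher. In limma the host difference of *Hba-a2* was 5.16 on the log2 scale (SE 0.50, adjusted p = 0.000133) for ATRX-CT and 5.50 (SE 0.41, adjusted p = 2.57e-05) for ATRX-KD tumors. These fitted values depend on the pseudocount of 1 FPKM and give no bound. The exact permutation test gave p = 0.0159 in each comparison, the smallest value that 126 arrangements allow.

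*Hba-a2* was the 1 member of 6 called in each host comparison, where a called gene has an adjusted p under 0.05 together with a fold change of 2 or more. Over all genes tested, the called share between hosts was 1.43% with ATRX-CT cells and 1.39% with ATRX-KD cells. It was also the 1 member whose hosts did not overlap, beside 7.57% and 8.13% of all genes.

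Its twin in sequence, *Hba-a1*, did not follow. *Hba-a1* stood at 179, 31.1, 154, and 32.4 FPKM in the Balb/c ATRX-CT tumors of mice 41, 43, 44, and 45, and at 118, 372, 200, 110, and 456 FPKM in NSG mice 1 to 5. The hosts overlapped, and the Balb/c minus NSG difference of -1.54 (SE 0.62, limma adjusted p = 0.218) did not pass. In ATRX-KD tumors it stood at 29.2, 161, 163, and 58.1 FPKM in Balb/c mice 56, 58, 59, and 60 and at 110, 82.0, 164, 150, and 126 FPKM in NSG mice 26 to 30, with a difference of -0.58 (SE 0.47, adjusted p = 0.579). Summed over both alpha genes, Balb/c tumors held 47.4 to 272 FPKM with a median of 164 FPKM, and NSG tumors 82.0 to 456 FPKM with a median of 138 FPKM.

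The beta genes, *Alas2*, and *Nme4* showed no host difference that passed. The Balb/c minus NSG difference was -0.64 (SE 0.57, limma adjusted p = 0.531) for *Hbb-bs* and -1.64 (SE 0.70, adjusted p = 0.235) for *Hbb-bt* in ATRX-CT tumors, and 0.43 (SE 0.46, adjusted p = 0.679) and -0.28 (SE 0.51, adjusted p = 0.818) in ATRX-KD tumors. For *Alas2* it was -0.58 (SE 0.70) and 0.44 (SE 0.40), with adjusted p-values of 0.644 and 0.626. For *Nme4* it was -0.15 (SE 0.25) and 0.04 (SE 0.33), with adjusted p-values of 0.746 and 0.969. The unadjusted limma p in ATRX-CT tumors was under 0.05 for *Hbb-bt* (0.0392) and for *Hba-a1* (0.0325), beside 19.3% of all genes.

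**Figure D2:**
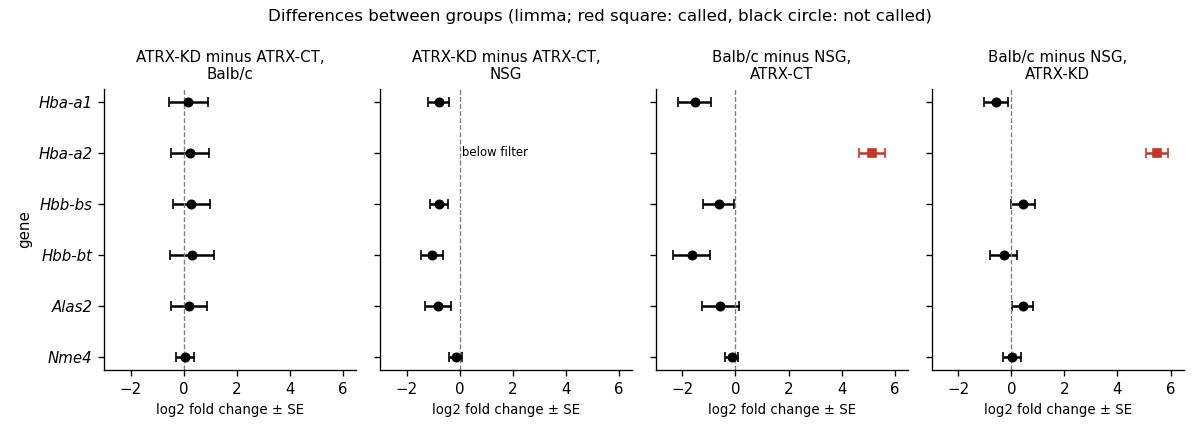
Log2 fold change with its SE from limma for the 6 genes, in ATRX-KD minus ATRX-CT tumors of each host and in Balb/c minus NSG tumors of each kind of cells; red squares are called and black circles are not. *Hba-a2* lies at 5.16 and 5.50 between hosts, and no other value is called.

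Ratios between globin genes were taken within each tumor. They compare reads assigned to the reference copies, and strain differences in these genes were not tested. *Hbb-bt* amounted to 9.04% to 15.9% of *Hbb-bs* in Balb/c ATRX-CT tumors, and in Balb/c mice with ATRX-KD cells to 10.4% to 14.0%. In NSG tumors it amounted to 19.4% to 29.2% with ATRX-CT and to 19.2% to 21.8% with ATRX-KD cells. The hosts did not overlap, and within each host the 2 kinds of cells did.

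On the log2 scale the *Hbb-bt* to *Hbb-bs* ratio was -3.05 ± 0.29 (SD, n = 8) in Balb/c and -2.16 ± 0.21 (SD, n = 10) in NSG tumors. The difference of -0.89 was larger than the spread within hosts (exact permutation test over 43758 arrangements, two-sided p = 4.57e-05, the smallest possible, Benjamini-Hochberg adjusted over 3 ratios p = 6.86e-05). In Balb/c tumors this ratio also went with the length slope, at -3.47 to -3.16 in the 4 tumors above 0.1 and at -2.89 to -2.65 in the others, and both ranges lay below the lowest NSG value of -2.38. The ratio also went with the summed globin level in both hosts. In Balb/c mice it was 9.04% to 11.2% in the 4 tumors with 167 to 350.0 FPKM of globin and 13.5% to 15.9% in the 4 with 813 to 966 FPKM. In NSG mice it was 19.2% to 23.5% in the 7 tumors with 246 to 515 FPKM and 25.6% to 29.2% in the 3 with 626 to 1364 FPKM. The NSG tumors of lower globin level thus had higher ratios than the Balb/c tumors of higher globin level.

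The *Hba-a2* to *Hba-a1* ratio varied little within Balb/c mice, at 50.8% to 62.7% over 8 tumors, although both genes differed several-fold between these tumors. In NSG tumors, where values under the floor were set to the floor, the ratio was at most 0.420%. On the log2 scale it was -0.86 ± 0.10 (SD, n = 8) against -8.77 ± 0.78 (SD, n = 10), a difference of 7.91 that also had the smallest possible exact permutation p of 4.57e-05 (adjusted p = 6.86e-05). The NSG values of this ratio are upper limits only as far as that floor is one.

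Summed beta over summed alpha globin FPKM differed far less. It was 1.34 ± 0.11 (SD, n = 8) on the log2 scale in Balb/c and 1.13 ± 0.12 (SD, n = 10) in NSG tumors. How far the level of this ratio rests on the handling of reads that match both copies was not tested. The difference of 0.21 passed the exact permutation test (p = 0.00165, adjusted p = 0.00165), with hosts that overlapped, and missed it within ATRX-CT tumors (0.14, exact permutation p = 0.111).

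**Figure D3:**
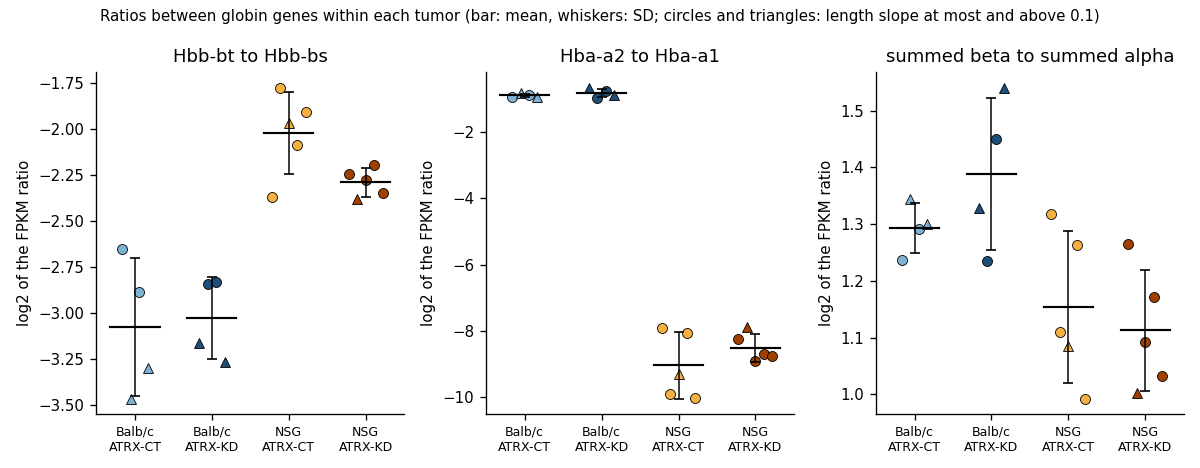
Log2 of the FPKM ratio of *Hbb-bt* to *Hbb-bs*, of *Hba-a2* to *Hba-a1*, and of summed beta to summed alpha globins in every tumor; bars are means, whiskers are SDs, triangles mark length slopes above 0.1, and the y axes differ and do not start at 0. The hosts are apart for the first pair of ratios and overlap for the third, and the NSG values of *Hba-a2* to *Hba-a1* rest on the floor of 3 fragments.

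The knock-down comparison asked whether globin RNA or *Nme4* differed between ATRX-KD and ATRX-CT tumors. *Atrx* itself stood at 13.4, 26.0, 10.3, and 20.7 FPKM in Balb/c ATRX-CT mice 41, 43, 44, and 45 and at 21.5, 7.88, 9.11, and 17.3 FPKM in Balb/c ATRX-KD mice 56, 58, 59, and 60. In NSG mice it stood at 16.2, 11.6, 24.4, 15.1, and 20.5 FPKM with ATRX-CT and at 8.42, 16.4, 8.59, 8.88, and 8.59 FPKM with ATRX-KD cells. The groups overlapped in both hosts, through mouse 27 in NSG mice.

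*Atrx* differed by -0.34 (SE 0.36, limma adjusted p = 0.999) in Balb/c and by -0.74 (SE 0.22, adjusted p = 0.0610) in NSG tumors, and neither was called. Without mouse 27 the NSG difference was -0.91 on the log2 scale (limma adjusted p = 0.0268), and over the other alternatives the adjusted p was 0.000976 to 0.153, each time under a fold change of 2. Taken over all length slopes, *Atrx* RNA therefore did not mark the label of every tumor. At slopes of at most 0.1 it was 7.88 and 9.11 FPKM with ATRX-KD against 10.3 and 13.4 FPKM with ATRX-CT cells in Balb/c mice. In NSG mice it was 8.42 to 8.88 against 11.6 to 20.5 FPKM at such slopes. Above 0.1 the kinds overlapped in Balb/c mice, at 17.3 and 21.5 against 20.7 and 26.0 FPKM. In NSG mice above 0.1, mouse 27 had 16.4 and mouse 3 had 24.4 FPKM. Host cells also contribute *Atrx* RNA to a tumor, and their part was not tested.

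In Balb/c tumors 0 of 6 members were called, beside 0.0068% of all genes. The ATRX-KD minus ATRX-CT differences were 0.17 for *Hba-a1*, 0.24 for *Hba-a2*, 0.29 for *Hbb-bs*, 0.32 for *Hbb-bt*, 0.21 for *Alas2*, and 0.03 for *Nme4*. Their SEs were 0.34 for *Nme4* and 0.67 to 0.83 for the others, and every limma adjusted p was 0.999. No member had an unadjusted p under 0.05, beside 4.14% of all genes, and in no member were the groups apart, beside 3.18% of all genes.

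In NSG tumors *Hba-a2* was below the filter of 0.1 FPKM, and 0 of the other 5 members were called, beside 0.464% of all genes. *Hbb-bt* stood at 47.9, 181, 86.6, 50.1, and 191 FPKM in ATRX-CT mice 1 to 5 and at 45.8, 26.4, 59.8, 60.8, and 42.3 FPKM in ATRX-KD mice 26 to 30. Mice 2, 3, and 5 were above every ATRX-KD tumor, whereas mice 1 and 4 lay among them. The difference was -1.04 (SE 0.40, adjusted p = 0.130, exact permutation p = 0.0794).

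*Hbb-bs* was also highest in mice 2, 3, and 5, at 247, 622, 339, 213, and 717 FPKM with ATRX-CT and 218, 138, 290, 278, and 216 FPKM with ATRX-KD cells. It differed by -0.78 (SE 0.34, limma adjusted p = 0.170), *Hba-a1* by -0.79 (SE 0.38, adjusted p = 0.214), and *Alas2* by -0.81 (SE 0.48, adjusted p = 0.309). The unadjusted limma p was under 0.05 for *Hbb-bt* (0.0253) and *Hbb-bs* (0.0415), beside 26.3% of all genes. No member had groups apart, beside 7.5% of all genes. In the same comparison all 10 endothelial markers had positive differences, with a median of 0.70, and 7 of 8 macrophage markers had negative ones, with a median of -0.55. Their part in the globin values was not tested.

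*Nme4* differed least among the 5 members tested. It stood at 15.9, 12.1, 8.16, 19.0, and 14.7 FPKM in NSG ATRX-CT and at 12.8, 5.97, 15.6, 15.2, and 13.4 FPKM in NSG ATRX-KD tumors, a difference of -0.15 (SE 0.26, limma adjusted p = 0.751). The lowest *Nme4* value of each NSG group came from mouse 3 or mouse 27, the NSG libraries with a length slope above 0.1.

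The difference of the knock-down effect between hosts was tested as an interaction in a fit of all 4 groups. It was 0.96 (SE 0.85) for *Hba-a1*, 1.07 (SE 0.80) for *Hbb-bs*, 1.36 (SE 0.95) for *Hbb-bt*, 1.01 (SE 0.88) for *Alas2*, and 0.19 (SE 0.45) for *Nme4*. The limma adjusted p-values ran from 0.678 to 0.923, and 0 of these 5 members and 0% of 14803 genes were called. None of the 5 had an unadjusted limma p under 0.05, beside 10.3% of all genes. *Hba-a2* is left out because its NSG values lie at or under the floor.

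The 8 Balb/c tumors fell on a lower and a higher level of globin RNA, in each kind of cells. Mice 43, 45, 56, and 60, with length slopes of 0.120 to 0.211, held *Hba-a1* at 29.2 to 58.1 FPKM and *Hbb-bs* at 107 to 236 FPKM. Mice 41, 44, 58, and 59, with length slopes of -0.122 to -0.000166, held *Hba-a1* at 154 to 179 FPKM and *Hbb-bs* at 501 to 620 FPKM. Each level held 2 ATRX-CT and 2 ATRX-KD tumors, so the levels crossed the knock-down groups.

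*Hba-a2*, *Hbb-bt*, and *Alas2* fell on the same levels without overlap, with *Alas2* at 2.31 to 5.70 FPKM against 13.4 to 19.4 FPKM. *Nme4* did too, at 7.02 to 9.57 FPKM against 14.9 to 19.8 FPKM, while *Atrx*, which has a transcript of 10244 nt, lay the other way, at 17.3 to 26.0 FPKM against 7.88 to 13.4 FPKM. The globin transcripts have 559 to 639 nt. When the trend with length was removed from each library, the levels of *Hba-a1* stayed apart (5.31 to 6.15 against 7.09 to 7.46 on the log2 scale), and those of *Nme4* came close (3.43 to 3.70 against 3.79 to 4.17). The part of library quality in these levels was not tested.

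Each level was also compared within itself. At the higher level ATRX-KD minus ATRX-CT was -0.04 for *Hba-a1*, 0.07 for *Hbb-bs*, -0.14 for *Alas2*, and 0.23 for *Nme4* on the log2 scale. At the lower level it was 0.37, 0.51, 0.55, and -0.16. For *Atrx* it was -0.43 at the higher and -0.25 at the lower level of globin RNA. With 2 tumors of each kind no test was made.

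**Figure D4:**
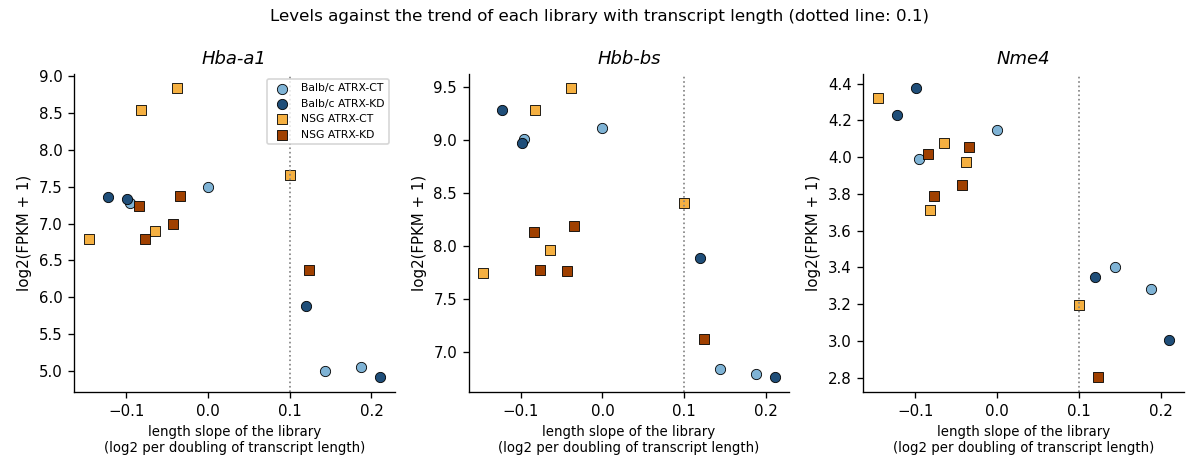
Level of *Hba-a1*, *Hbb-bs*, and *Nme4* in each tumor, as log2 (FPKM + 1), against the length slope of its library, with Balb/c tumors as circles and NSG tumors as squares. The 4 Balb/c tumors right of 0.1 are the 4 lowest Balb/c values in each panel, and the NSG *Hba-a1* levels spread over 82.0 to 456 FPKM with most slopes below 0.

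Because the Balb/c tumors fell on separate levels, relations between measures were taken in the 10 NSG tumors. Mean alpha and mean beta globin moved together (Pearson r = 0.98, Spearman rho = 0.93, n = 10 tumors), and r was 0.93 without the 2 tumors farthest from the median. Mean globin went with *Alas2* (r = 0.95, rho = 0.84, and 0.83 without these 2) and with the mean of 24 late erythroid genes (r = 0.93, rho = 0.89, and 0.85 without these 2). These values describe tumors that share groups, and no p is given because the globin mean is a score over the genes chosen.

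Markers of other cells moved with globin RNA to different degrees. The mean of 10 neutrophil genes, which also come with blood, had r = 0.84 with mean globin (rho = 0.72, and 0.71 without the 2 farthest tumors, n = 10), and its summed level was 45.3 to 198 FPKM in NSG tumors. For 10 endothelial genes r was -0.45, which turned to 0.19 without the 2 farthest tumors, and for 11 platelet and megakaryocyte genes it was 0.31 and turned to 0.73. The endothelial and platelet values therefore depend on those 2 tumors.

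*Nme4* moved little with the globins in NSG tumors. Its r with mean alpha globin was 0.16 (rho = -0.02, and -0.38 without the 2 farthest tumors, n = 10), and its r with *Atrx* was -0.37 (rho = -0.24, permutation p = 0.314 and 0.512), which turned to 0.39 without the 2 farthest tumors. The 2 farthest tumors were mice 3 and 27, the NSG libraries with length slopes above 0.1 (0.1002 and 0.124). Their *Atrx* values were 24.4 and 16.4 FPKM. With the group means removed, r between *Nme4* and *Atrx* was -0.73 in the 10 tumors, mice 3 and 27 included. The part of the length slope in this value was not tested.

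The genes most like the members were sought among 12181 genes, by Pearson r over 18 tumors after group means were removed. *Alas2* had r = 0.95 with the globin mean. Outside the members the closest were *Gm5483* (0.91), *Pdlim2* (0.91), *Snx1* (0.90), *Bpgm* (0.90), and *Tinf2* (0.90), where *Bpgm* encodes the enzyme that makes bisphosphoglycerate, a regulator of oxygen release from hemoglobin. In the 10 NSG tumors alone their r was 0.56 to 0.81, and that of *Alas2* was 0.95. *Alas2* itself was most like *Bpgm* (0.91, and 0.89 in NSG tumors), followed by *Akr7a5*, *Nnmt*, *Gm5483*, and *Lin37*.

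*Nme4* had another set of companions. It was most like *Glrx5*, a mitochondrial glutaredoxin for iron-sulfur clusters (r = 0.97), *Lsm3* (0.96), *Lage3* (0.96), *Pmpcb*, a subunit of the mitochondrial processing peptidase (0.96), and *Tmem126b*, an assembly factor of respiratory complex I (0.96). In NSG tumors these values were 0.94 to 0.99. Its r was 0.91 with *Nme3* and -0.84 with *Atrx* over 18 tumors. Their transcripts have 631 to 1596 nt, and since the Balb/c levels enter these values, the part of the length slope in them was not tested.

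Markers of red cell precursors differed in level. Together the 24 late erythroid genes gave 134 to 214 FPKM per tumor and the 8 erythroid transcription factors 23.8 to 46.5 FPKM. Low among them were *Slc4a1*, *Gata1*, and *Klf1*. *Slc4a1*, which encodes the band 3 anion exchanger of the red cell membrane, was at most 1.44 FPKM. The factors *Gata1* and *Klf1* were at most 0.191 and 0.255 FPKM. Fetal and minor globins were near 0 as well, with *Hbq1b*, *Hbb-bh1*, and *Hbq1a* at most 0.647, 0.275, and 0.294 FPKM. Adult globins and *Alas2* were present, and these 6 transcripts stayed under 2 FPKM. *Slc4a1*, *Gata1*, and *Klf1* were named for their low level and do not stand for their lists. Over all tumors 10 of the 24 late erythroid genes and 2 of the 8 factors had a mean under the filter used in the tests.

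Of 25 red cell membrane and late erythroid genes, 24 were in the matrix and 12 to 15 were tested per comparison. By limma 0 were called between ATRX-KD and ATRX-CT tumors, beside 0.0068% of all genes in Balb/c and 0.464% in NSG tumors. At an unadjusted p under 0.05 there were 1 of 15 in Balb/c and 5 of 13 in NSG tumors, beside 4.14% and 26.3% of all genes. The median difference of these erythroid genes was 0.02 in Balb/c tumors, beside -0.00321 over all genes. In NSG tumors it was -0.17, where 3 of 13 were positive, beside -0.00141 over all genes. Between hosts 1 was called, *Car2*, a carbonic anhydrase that is not restricted to red cells, beside 1.43% and 1.39% of all genes. It was higher in Balb/c tumors by 1.14 (SE 0.20, limma adjusted p = 0.00891) with ATRX-CT and by 1.76 (SE 0.29, adjusted p = 0.00657) with ATRX-KD cells. *Slc25a37*, the mitochondrial iron importer mitoferrin, stood at 14.9 to 28.5 FPKM and *Bpgm* at 3.96 to 8.53 FPKM, and neither was called.

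By limma 0 of the 8 other genes of heme synthesis were called in any comparison, beside at most 1.43% of all genes. *Ppox* had an unadjusted p under 0.05 between NSG groups and in the interaction, beside 26.3% and 10.3% of all genes. Of the 8 erythroid transcription factors 5 or 6 were tested and 0 called. At most 2 had an unadjusted p under 0.05 in a comparison, beside 4.14% to 26.3% of all genes. *Alas1*, the enzyme that serves in place of *Alas2* outside red cells, was even across tumors, at 12.9 to 17.4 FPKM, and *Fech*, which inserts the iron into heme, was at 18.9 to 34.9 FPKM. Among 12 genes of heme and iron clearance, *Slc40a1*, which encodes the iron exporter ferroportin, was called between hosts with ATRX-KD cells, beside 1.39% of all genes. It was higher in Balb/c mice by 2.21 (SE 0.27, limma adjusted p = 0.000969). *Hmox1*, the heme oxygenase that degrades heme, stood at 100.4 to 444 FPKM and was not called.

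Markers of other cells were called between hosts beside *Hba-a2*, all higher in Balb/c tumors. *Pecam1* was called in ATRX-CT tumors (1.14, SE 0.25, limma adjusted p = 0.0348) and *Cldn5* in ATRX-KD tumors (1.17, SE 0.21, adjusted p = 0.0109), each as 1 of 10 endothelial markers. The neutrophil genes *S100a8* (1.53, SE 0.27, adjusted p = 0.0109) and *S100a9* (1.54, SE 0.34, adjusted p = 0.0367) were called in ATRX-KD tumors, 2 of 10. Over all genes 1.43% were called between hosts with ATRX-CT and 1.39% with ATRX-KD cells. By limma 0 genes of the endothelial or neutrophil list were called between ATRX-KD and ATRX-CT tumors, beside 0.0068% of all genes in Balb/c and 0.464% in NSG tumors. At an unadjusted p under 0.05 there were 4 endothelial genes and 1 neutrophil gene in Balb/c tumors and 10 and 1 in NSG tumors, again beside 4.14% and 26.3% of all genes. Between hosts there were 8 endothelial genes and 1 neutrophil gene with ATRX-CT cells, beside 19.3% of all genes. With ATRX-KD cells there were 6 of each, beside 16.4%. All 10 endothelial differences between hosts were positive with either kind of cells, with medians of 0.73 (ATRX-CT) and 0.64 (ATRX-KD). The summed endothelial level was 62.2 to 200.2 FPKM in Balb/c and 29.1 to 87.5 FPKM in NSG tumors, and its part in the *Hba-a2* difference was not tested.

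No gene around the members was called. Over all genes the called share was 0.0068% and 0.464% for the knock-down in Balb/c and NSG tumors. Between hosts it was 1.43% with ATRX-CT and 1.39% with ATRX-KD cells, so 0 among so few genes is near that share. The annotation held 5 other genes within 100 kb of *Nme4*, namely *Rab11fip3*, *Decr2*, *Tmem8*, *Mrpl28*, and *Axin1*, and by limma 0 were called in any comparison. For the knock-down 0 had an unadjusted p under 0.05, beside 4.14% and 26.3% of all genes in Balb/c and NSG tumors. Between hosts 3 and 1 of these 5 did with ATRX-CT and ATRX-KD cells, beside 19.3% and 16.4% of all genes. Their knock-down differences ran from -0.26 to 0.15 in Balb/c and from -0.13 to 0.24 in NSG tumors, beside 0.03 and -0.15 for *Nme4*. Near the alpha globins 5 or 6 of 9 other genes passed the filter and 0 were called. For the knock-down in NSG tumors 1 of 6, *Hbq1b*, had an unadjusted limma p under 0.05 (0.0252), beside 26.3% of all genes. Between hosts with ATRX-CT cells 2 of 6, *Mpg* and *Sh3pxd2b*, did, beside 19.3% of all genes. *Nprl3*, whose introns hold the enhancers of the alpha globins, differed by -0.11 (SE 0.15) in NSG tumors. Near the beta globins 11 of 16 genes were olfactory receptors, and *Hbb-bh1* was the single other gene tested.

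*Nme4* is a minor member of its family in these tumors by level. The cytosolic kinases *Nme2* and *Nme1* stood at 337 to 758 FPKM and 122 to 204 FPKM, and *Nme3* at 9.44 to 25.8 FPKM, beside 5.97 to 19.8 FPKM for *Nme4*. Of the 6 other family members 5 or 6 were tested and 0 called by limma in any comparison, beside at most 1.43% of all genes. *Nme7* had an unadjusted p under 0.05 between NSG groups, beside 26.3% of all genes.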

How the data were processed

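RNA of 18 K7M2 tumors was analysed, mapped to 4 groups and mouse numbers by their labels. The authors prepared ribo-depleted, stranded libraries, aligned 75-base paired reads to mm10 with STAR 2.6.0c, discarded low-scoring reads and PCR duplicates, and obtained FPKM for RefSeq genes from Cufflinks 2.2.1. The deposited matrix gives log2 (FPKM + 1) for 20878 genes and 92 spike-ins, and the deposited annotation gave positions and transcript lengths. DESeq, named in the submitters' processing notes, served the authors' own comparison, which was not used. mm10 is the genome of C57BL/6J mice, the strain of neither host.

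Members, gene lists, and tests were chosen with earlier results of these data known. Groups were compared with limma 3.58.1 (trend) in R 4.3.3 on log2 (FPKM + 1), keeping genes whose mean FPKM in the tumors compared reached 0.1. Benjamini-Hochberg adjustment ran over all genes, and calls needed an adjusted p under 0.05 with a fold change of 2 or more. For single values, exact permutation tests (two-sided) were run in Python 3.11.15 with scipy 1.17.1. Mice were separate, so p-values measure the spread between mice. The fits were tested on simulated data before use.

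The spacing of low FPKM values gave the depth, at a fragment length of 160 nt. Only 34.1% to 38.4% of low values fell on a whole number of fragments within 0.1, against 20% for evenly spread values, so whole reads were not recovered and no count test was run. Length slopes are the slope of a library's deviation from gene means on log2 transcript length. Alternatives were a pseudocount of 0.1, median-ratio scaling, other filters, no fold threshold, library weights, removal of the length trend, a fit of all groups, leaving out each tumor, and, added after seeing the data, the length slope as a covariate and its classes. In 2 points the analysis departed from its plan. The *Hba-a2* to *Hba-a1* ratio used the floor of 3 fragments where the value was lower, and relations between measures were taken in NSG tumors alone. Named genes are the members, *Atrx*, genes within 100 kb of them, up to 4 genes of each of 15 lists, and the 5 genes most like the globin mean, *Alas2*, and *Nme4* by Pearson r. Other genes named from the lists were chosen after their values were seen. Promoters were read from RefSeq (GRCm38.p6) and transcripts from GENCODE.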

Additional observations from a re-analysis of the deposited data

Results flagged for a closer look

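In the NSG ATRX-KD group, mouse 27 stood apart from the other 4 tumors for 2 genes, by Dixon's test at the 95% level. Its *Nme4* level was 2.80 on the log2 (FPKM + 1) scale, against 3.79 to 4.06 in the others. Its *Atrx* level was 4.12, against 3.24 to 3.30 in the others, and so lay within the range of the NSG ATRX-CT tumors. The length slope of this library was 0.124, the highest of the NSG tumors, and with the length trend removed its *Nme4* level was 3.08 and its *Atrx* level 3.87, still the lowest and the highest of the group. With 40 groups of values examined, about 2 such cases are due to chance. What sets this tumor apart was not tested.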

How the results depend on the processing

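*Hba-a2* was called between hosts under every alternative run and without any single tumor (adjusted p at most 0.000765), and no other member was called in any comparison under any of them. Between hosts in ATRX-KD tumors, the limma adjusted p fell as low as 0.0301 for *Hbb-bs* and 0.0431 for *Alas2*. Their differences reached at most 0.92 and 0.86 over the alternatives, under a fold change of 2. The ratios of *Hbb-bt* to *Hbb-bs* and of *Hba-a2* to *Hba-a1* also kept direction and call, at -1.05 to -0.73 and 6.38 to 8.13. Of the host differences in the 3 ratios, that of summed beta to alpha globin fell short in ATRX-CT tumors alone (0.14, exact permutation p = 0.111), where fewer tumors were compared.

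Directions of members that were not called turned under single alternatives, and the cause was not tested. For the knock-down in Balb/c tumors, the length slope as a covariate gave -0.093 for *Hba-a1*, -0.013 for *Hba-a2*, -0.021 for *Alas2*, and -0.080 for *Nme4*, and removal of the length trend gave -0.018 for *Nme4*. Between hosts in ATRX-CT tumors, library weights gave 0.088 for *Hbb-bs* and 0.46 for *Alas2*, and *Nme4* reached 0.057 when the length trend was taken out and 0.21 under the slope covariate. In ATRX-KD tumors *Hbb-bt* was 0.32 with library weights and 0.071 with the slope, and the *Nme4* interaction was -0.035 with the slope.

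Leaving out each tumor in turn moved the Balb/c knock-down difference over -0.24 to 0.65 for *Hba-a1*, -0.16 to 0.67 for *Hba-a2*, -0.094 to 0.78 for *Hbb-bs*, -0.16 to 0.84 for *Hbb-bt*, -0.20 to 0.67 for *Alas2*, and -0.18 to 0.28 for *Nme4*. The NSG knock-down difference of *Nme4* ran over -0.32 to 0.073. Between hosts, *Atrx* ran over -0.25 to 0.17 in ATRX-CT tumors, and *Hbb-bt* over -0.69 to 0.23 and *Nme4* over -0.19 to 0.28 in ATRX-KD tumors. The interaction ran over -0.052 to 0.78 for *Hba-a2*, which is at the floor in NSG tumors, and -0.038 to 0.43 for *Nme4*. *Atrx* in NSG tumors had an adjusted p of 0.000976 to 0.153 over all alternatives and never reached a fold change of 2.

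The background counts of all genes moved more. Library weights called 4 higher and 11 lower genes for the knock-down in Balb/c tumors (0 and 1 in the fit reported, 2 and 4 with all groups in the fit) and 124 and 71 for the interaction (0 and 0), where the slope covariate called 4 and 7. In NSG tumors a pseudocount of 0.1 called 63 and 163 (25 and 43 in the fit reported), library weights 79 and 122, and single tumors left out gave 15 and 12 (mouse 30) to 38 and 86 (mouse 26). Between hosts a pseudocount of 0.1 called 263 and 153 with ATRX-CT cells (131 and 81) and 346 and 78 with ATRX-KD cells (165 and 39).

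No paired analysis was possible because the groups share no mouse numbers. The depth limits *Hba-a2* in NSG tumors to values at or near the floor, and the shared sequence of the copies limits every split within a globin pair. That shared sequence also limits the comparison of alpha with beta levels.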
